A study of Homo sapiens with 6 samples.

Results

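The replication-dependent H2A mRNAs of chromosome 6 encode the core histone H2A that packs newly made DNA during S phase. The members were 10 protein-coding genes of the histone gene cluster, namely H2AC4, H2AC6, H2AC7, H2AC8, H2AC11, H2AC12, H2AC13, H2AC14, H2AC16 and H2AC17, of 20046 protein-coding genes in the annotation. A cross-link position belonged to a member when it lay on the same strand inside an exon of that gene in GENCODE release 44, whatever gene name it had been given. The rule used no measured value. eIF4B binding was mapped by iCLIP, in which the cross-linked protein stops reverse transcription and the cDNA count at a nucleotide reports the cross-links there. The cells were DoHH-2, a line from diffuse large B-cell lymphoma (DLBCL), with 4 replicates in the labels, and GM01953, a control B-cell line, with 2. Both were untreated, the cells were irradiated at 150 mJ/cm2 with UVC, and endogenous eIF4B was precipitated with 10 µg of antibody after digestion with 0.6 U of RNase I. Each cell type is represented by 1 line, and the replicates of a line are pooled in the values used here. Every value below is therefore a single value per cell line with no replicate error, no test between the lines was possible, and intervals cover counting error only.

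The mRNAs of these histones are not polyadenylated, and their processed 3′ end is marked by a short conserved stem–loop. The stem–loop is bound by SLBP, which promotes processing and translation, and at the end of S phase UPF1 and SLBP take part in the rapid decay of these mRNAs. eIF4B is a translation initiation factor that stimulates the helicase eIF4A, whose best known substrate is structured RNA in the 5′ UTR. The members are intronless in their histone form and encode nearly the same protein, H2AC4 and H2AC8 an identical protein, and H2AC11, H2AC13, H2AC16 and H2AC17 another identical protein.

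The stretch where cross-links were densest in each mRNA is shown first. For each mRNA this is the stretch of 30 nt with the highest summed count in DoHH-2, 5′ to 3′ and in DNA letters, with the 3 nucleotides of highest count within it in capitals.
H2AC4: cttcatgcactgctgtttTtctGtcagcaG
H2AC6: gtgatttGacaggtatctgagctCccgGaa
H2AC7: tctTatattggctttTTaaggaagcagtct
H2AC8: gatTactagtcaaatccGtcagtGatcccg
H2AC11: ctatctgtactagTttgtggcagctCaaGt
H2AC12: cataaggccaaataaggagcgagGtTgtGa
H2AC13: gcctgGattagtTtgcagcaactCaatccc
H2AC14: ccaccacaagactaaGtaaaGaccgaGttg
H2AC16: gcaaataatgtcTCcatagaatCactttcc
H2AC17: gtaagggctgaactTTaaaaatgtaaactT
These windows lie in GRCh38 at chr6:26033136-26033165 (H2AC4, minus strand), chr6:26124622-26124651 (H2AC6, plus strand), chr6:26198812-26198841 (H2AC7, minus strand), chr6:26217371-26217400 (H2AC8, plus strand), chr6:27133465-27133494 (H2AC11, plus strand), chr6:27147501-27147530 (H2AC12, plus strand), chr6:27808605-27808634 (H2AC13, plus strand), chr6:27814343-27814372 (H2AC14, minus strand), chr6:27865740-27865769 (H2AC16, plus strand), chr6:27892731-27892760 (H2AC17, minus strand). They began between 16 nt upstream and 13 nt downstream of the first base of the stop codon and ended 7 to 22 nt before the stem–loop, so that all 10 lay in the end of the CDS or in the 3′ UTR. In DoHH-2 they contained 42.1% (H2AC4) to 66.2% (H2AC14) of the counts of their mRNA, with a median of 52.0%. The same windows held 44.1% (H2AC12) to 77.7% (H2AC17) in GM01953, with a median of 62.4%, although they had been chosen in DoHH-2. No capital is an A, in spite of the many A in the windows.

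The stem–loop that follows was the same 16 nt in 9 of the 10 members and is shown for its place after the cross-links, with the loop of 4 nt in capitals.
H2AC16: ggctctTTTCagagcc
H2AC11: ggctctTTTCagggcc
The stem–loop of H2AC16 is at chr6:27865778-27865793 on the plus strand and that of H2AC11 at chr6:27133515-27133530 on the plus strand. Counted from 1 at the 5′ end of the stem–loop, H2AC11 differed by A13G. The sequences between the stop codon and the stem–loop were much less alike than the coding sequences. Over the 45 pairs of members, 18.9% to 56.7% of the bases were the same when aligned at the stem–loop without gaps, with a median of 36.7%, whereas the CDS matched at 83.3% to 98.2% of the bases, with a median of 87.0%.

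All 10 members were among the coding genes with most cDNA counts. Together they had 79239 of the 2033156 counts in DoHH-2, 3.90% (Wilson 95% interval 3.87 to 3.92%), and 4602 of the 167197 counts in GM01953, 2.75% (2.68 to 2.83%). These counts lay at 3578 positions in DoHH-2 and 819 in GM01953. Ranked by counts in exons, the members stood between rank 6 (H2AC16) and rank 47 (H2AC4) of 11531 coding genes with a count in DoHH-2, and between rank 9 (H2AC16) and rank 67 (H2AC4) of 9144 in GM01953.

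Levels of the members were compared per length of their stem–loop mRNA, as CPM per kb, where CPM are counts scaled to a total of 1000000 for the table of each line. H2AC16 (ENSG00000276903, chr6:27865317-27865798, plus strand) had the highest level in both lines, with 13617 in DoHH-2 and 9170 in GM01953. H2AC14 (ENSG00000276368, chr6:27814302-27814777, minus strand) came next with 9632 and 8569, and H2AC8 (ENSG00000277075, chr6:26216921-26217437, plus strand) had 9520 and 7346. H2AC17 (ENSG00000278677, chr6:27892699-27893185, minus strand) had 9231 in DoHH-2 and 6386 in GM01953. These 4 genes held the 4 highest levels in each line. In DoHH-2 H2AC8 could not be told apart from H2AC14 or from H2AC17, since its interval overlapped both, whereas H2AC14 stood above H2AC17. In GM01953 H2AC16 could not be told apart from H2AC14, nor H2AC8 from H2AC17, since their intervals overlapped. H2AC7 (ENSG00000196866, chr6:26198784-26199293, minus strand) came after these 4 in both lines, with 8044 in DoHH-2 and 5301 in GM01953. H2AC11 (ENSG00000196787, chr6:27133043-27133535, plus strand) had 7244 and 4622. H2AC12 (ENSG00000274997, chr6:27147106-27147562, plus strand) had 6978 and 4803, and its interval overlapped that of H2AC11 in both lines. H2AC13 (ENSG00000196747, chr6:27808173-27808667, plus strand) had 5728 and 3782. H2AC6 (ENSG00000180573, histone mRNA at chr6:26124172-26124690, plus strand) had 5531 and 3826, again with an interval that overlapped that of H2AC13 in both lines. H2AC4 (ENSG00000278463, chr6:26033092-26033618, minus strand) was lowest in both lines, with 3484 in DoHH-2 and 1918 in GM01953, and its intervals overlapped those of no other member. The highest level was 3.91 times the lowest in DoHH-2 and 4.78 times in GM01953. Of the 9 pairs of neighbours in the order, 4 had overlapping intervals in DoHH-2 and 6 in GM01953, where the depth is 12.2 times lower. The order of the members was nearly the same in both lines (Spearman's rho of counts 0.99 over 10 genes, as a description; each line is 1 pooled library and the genes share it).

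The share of the table was higher in DoHH-2 than in GM01953 for every member, by 1.42 times for the 10 together (exact 95% interval 1.37 to 1.46). H2AC4 had the largest ratio, 1.82 (1.56 to 2.13), from 3733 counts in DoHH-2 and 169 in GM01953. H2AC14 had the smallest, 1.12 (1.04 to 1.22), from 9322 counts and 682. The other 8 members lay between 1.30 (H2AC8) and 1.57 (H2AC11). No member reached a ratio of 2 in either direction, whereas of 2672 coding genes with at least 60 CPM on average 16.7% had a share at least 2 times higher in DoHH-2 and 18% a share at least 2 times higher in GM01953. The median ratio of those genes was 1.02, with quartiles of 0.62 and 1.59, beside a median of 1.47 over the members. Part of the ratio followed the denominator, since 77.8% of the DoHH-2 counts and 70.6% of the GM01953 counts lay in exons of coding genes, and with those as the denominator the ratio for the 10 members was 1.29. The counts were not divided by mRNA levels, so more H2A mRNA and more cross-links per mRNA cannot be told apart. The H2B, H3 and H4 mRNAs of the same chromosome had ratios of 1.36 (1.32 to 1.40), 1.54 (1.50 to 1.59) and 1.63 (1.59 to 1.67), so the H2A ratio lay between that of H2B, with which its interval overlapped, and those of H3 and H4. The other H2A genes of chromosome 6 held fewer counts than each member, 1370 in DoHH-2 and 83 in GM01953 for H2AC15, and 78 and 0 for H2AC1.

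Most cross-links of the H2A mRNAs lay between the stop codon and the stem–loop, an interval of 33 to 65 nt in mRNAs of 457 to 527 nt. In DoHH-2 this interval held 42345 of the 79233 counts in the stem–loop mRNAs, 53.4% (53.1 to 53.8%). In GM01953 it held 3266 of 4590, 71.2% (69.8 to 72.4%). The CDS took 37.0% (DoHH-2) and 23.4% (GM01953) of the counts, and the 5′ UTR 9.56% and 5.42%. Per nucleotide, the interval carried 93.9 counts in DoHH-2 against 7.54 in the CDS and 18.2 in the 5′ UTR. In GM01953 the values were 7.24, 0.276 and 0.60. The density after the stop codon was thus 12.5 times that of the CDS in DoHH-2 and 26.2 times in GM01953.

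By member, the share from stop codon to stem–loop in DoHH-2 was highest in H2AC17 with 61.5% (60.5 to 62.5%) and H2AC6 with 60.6% (59.3 to 61.9%). H2AC7 had 58.0%, H2AC11 54.6%, H2AC16 54.4% and H2AC4 53.5%. H2AC8 and H2AC13 each had 50.8%. H2AC14 with 46.6% (45.6 to 47.6%) and H2AC12 with 42.6% (41.4 to 43.8%) were the only members below 50%, and in both of them the interval is only 33 nt long and the CDS held as many counts or more. H2AC16 has an interval of the same length and stood above both. In GM01953 the share was higher than in DoHH-2 in each of the 10 members. It was 80.2% in H2AC17, 79.4% in H2AC16, 77.2% in H2AC7, 75.0% in H2AC6 and 71.6% in H2AC4. H2AC13 had 70.3%, H2AC14 66.3%, H2AC8 64.7%, H2AC12 63.2% and H2AC11 59.8% (54.8 to 64.6%), the only member whose interval overlapped its own interval in DoHH-2. The members are not replicates of the cell line, and all of them come from the same pair of pooled tables.

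Few other mRNAs had this distribution. A window of 60 nt from the first base of the stop codon held at least 50% of the counts in 8 of the 10 members in DoHH-2 and in 10 of 10 in GM01953. Among all coding genes with more than 20 counts in the canonical transcript, the percentage that passed was 0.416% of 7931 in DoHH-2 and 5.09% of 1021 in GM01953. The median gene had 1.57% of its counts in this window in DoHH-2 and 0% in GM01953. Most mRNAs have much longer 3′ UTRs, so the window takes a smaller part of them. Among mRNAs with the same architecture, the interval from stop codon to stem–loop held 47.8% of the counts of H2B mRNAs, 44.6% of H3 and 48.7% of H4 in DoHH-2, each below the 53.4% of H2A. In GM01953 it held 62.2%, 57.5% and 68.1%, again each below the 71.2% of H2A. These shares are sums over the genes of a family. In DoHH-2 the median gene had 52.86% in H2B, 44.16% in H3 and 47.25% in H4, beside 53.96% in H2A. The highest gene in DoHH-2 had 100% in H2B, 69.8% in H3 and 93.3% in H4, each above the 61.5% of H2A. In GM01953 the highest gene of H2A, with 80.2%, stood above that of each other family. The interval is also longest in the H2A mRNAs, 45.1 nt on average against 35.7 nt in H2B, 37.5 nt in H3 and 39.8 nt in H4. Per nucleotide, the density of the interval in DoHH-2 was 11.5 times that of the CDS in H2B, 10.3 in H3 and 8.07 in H4. In H2A it was 12.5 times. In GM01953 these values were 21.7, 17.3 and 18.1 times, beside 26.2 in H2A. All of them include CDS sequence that is shared between genes. Without such sequence the H2A values were 9.71 in DoHH-2 and 20.7 in GM01953. The other families were not counted that way, so whether H2A stands above them in density was not tested.

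The difference between the cell lines lay mostly outside the interval. From the stop codon to the stem–loop, the 10 mRNAs had 20827 (DoHH-2) and 19534 (GM01953) CPM, a ratio of 1.07 (1.03 to 1.11). In the CDS they had 14418 and 6430 CPM, a ratio of 2.24 (2.11 to 2.39), and in the 5′ UTR 3725 and 1489, a ratio of 2.50 (2.20 to 2.85). In the CDS the interval of the ratio was above 1 in 10 of 10 members, from 1.52 in H2AC8 to 3.71 in H2AC16. In the 5′ UTR it was above 1 in 9 of 10, with H2AC12 at 1.42 (0.92 to 2.29) as the exception. From the stop codon to the stem–loop it was above 1 in 5 members (H2AC4, H2AC6, H2AC7, H2AC11 and H2AC17), held 1 in 4 (H2AC8, H2AC12, H2AC13 and H2AC16) and was below 1 in H2AC14, 0.79 (0.72 to 0.87). These ratios compare shares of the whole table, of which 77.8% lay in coding exons in DoHH-2 and 70.6% in GM01953. As shares of the counts in coding exons, the interval had a ratio of 0.968 (0.934 to 1.003) over the 10 members, above 1 only in H2AC4 and H2AC11, below 1 in H2AC14 and not different from 1 beyond its interval in the other 7, whereas the CDS had 2.04 (1.92 to 2.17), still above 1 in 10 of 10. Such counts were not made over all coding genes, so they do not show a trait of the H2A mRNAs. In H2B, H3 and H4 mRNAs the interval also held a larger share in GM01953 than in DoHH-2. These shares were 62.2% and 47.8% in H2B, 57.5% and 44.6% in H3, and 68.1% and 48.7% in H4. In H2AC16, the CDS held 5414 counts in DoHH-2 and 120 in GM01953. The interval after the stop codon of H2AC16 held 7260 and 587, a ratio of 1.02 (0.93 to 1.11). When DoHH-2 was downsampled to the total count of GM01953, the share from stop codon to stem–loop was 53.8%, and it stayed below that of GM01953 in each of the 10 members. At this equal total the members held 6681 counts at 1646 positions in DoHH-2 and 4590 counts at 814 positions in GM01953, so GM01953 had more counts on each counted position. The same was seen over the whole table, which held 131086 positions in the downsampled DoHH-2 and 78474 in GM01953. The part that this difference in stacking has in the shares was not tested.

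Within the CDS, the counts were gathered toward the stop codon. When each CDS was cut into 10 equal parts, part 10 at the stop codon held 12888 of 29315 CDS counts (DoHH-2) and 407 of 1075 (GM01953), and the last 30 nt alone held 37.0% and 34.2%. Part 1 held 11.1% and 12.0%, whereas part 4 held 2.89% and 2.79%. In these counts the rise toward the stop codon began inside the coding sequence in both lines. The parts include CDS sequence that is shared between genes. Of the 3888 CDS nucleotides, 2883 were followed by a stretch that occurs once in the genome. These held 27865 of the 29315 CDS counts in DoHH-2 and 1009 of the 1075 in GM01953. The parts were not counted on such nucleotides alone, so the share of repeated sequence in the low part 4 and in the rise was not tested. In the 10 nt before the stop codon lay 5.38% (DoHH-2) and 4.16% (GM01953) of all counts, and in the 10 nt that begin with the stop codon 13.7% and 13.4%. The next 10 nt held 19.0% and 20.4%.

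Measured from the stem–loop, counts were highest 21 to 30 nt before its first base, where 23.9% of the counts lay in DoHH-2 and 27.0% in GM01953. Between 11 and 20 nt before the stem–loop lay 12.4% in DoHH-2 and 22.0% in GM01953. In the last 10 nt before the stem–loop lay 2.09% in DoHH-2 and 8.10% in GM01953. The last counted position of a member was not nearer to the stem–loop in GM01953 than in DoHH-2 in any of the 10 members. In the mean profile, in which each mRNA has the same weight, the highest point of DoHH-2 was 29 nt before the stem–loop with 3.41% of an mRNA's counts. GM01953 had 4.37% at the same distance and 4.33% at 12 nt before the stem–loop.

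No count fell in the stem–loop or after it in any member. With 79233 counts in DoHH-2 and 4590 in GM01953, a count of 0 allows a share of up to 0.00379% and 0.0654% of the counts (3 counts of the total). The last counted position lay 19 to 29 nt before the annotated end of the mRNA in DoHH-2 and 20 to 32 nt in GM01953. The iCLIP read begins 1 nt after the cross-link, so a read that runs to the end of the mRNA from such a position has that length. The shortest 3′ end that occurs only once in the genome was 16 nt in H2AC6, 18 nt in H2AC11, 22 nt in H2AC16 and 26 to 27 nt in the other 7 members, and the stem–loop begins 17 to 22 nt before the annotated end. The part of read length and of repeated sequence in the absence of counts was not tested. In the members other than H2AC6 and H2AC11, a read that begins in the stem–loop and stops at the annotated end could not be placed uniquely, and whether such reads were kept is not given in the sources used here. Only 272 counts of both lines lay closer to the end than the shortest unique end, 197 of them in H2AC12, whose annotated mRNA stops 1 nt after the stem–loop. In the 100 nt downstream of the mRNAs lay 7 counts in DoHH-2, next to 4 of the members, and 0 in GM01953. On the opposite strand lay 2 counts in DoHH-2 and 1 in GM01953.

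The highest cross-link of each mRNA lay between the stop codon and the stem–loop in 10 of 10 members in both lines, and its place differed between members. In DoHH-2 it was 4 nt (H2AC14) to 35 nt (H2AC4) downstream of the first base of the stop codon, with a median of 11.5 nt, and 20 to 43 nt upstream of the stem–loop, with a median of 27.5 nt. In GM01953 it was 4 nt (H2AC14) to 31 nt (H2AC4 and H2AC11) downstream of the stop codon, with a median of 23.5 nt, and 9 to 40 nt upstream of the stem–loop, with a median of 25.5 nt. The 3 highest positions of every member, 30 in each line, lay in the interval for 29 in DoHH-2 and for 30 in GM01953.

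H2AC14 had the sharpest peak in DoHH-2. A G at 4 nt from the stop codon held 1166 counts in DoHH-2, 12.5% of the mRNA, and 141 in GM01953, 20.7%. It was the highest position in both lines, and the second was the G at 10 nt with 555 and 55 counts. H2AC17 had its highest DoHH-2 position at a T 14 nt from the stop codon, with 987 counts, 10.8% of the mRNA, and 48 in GM01953. In GM01953 the T at 28 nt was the highest, with 120 counts, 23.1% of the mRNA, beside 614 in DoHH-2. Both positions were among the 3 highest in each line, in reversed order.

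H2AC7 had a run of T at its peak, with 661 counts at 28 nt and 625 at 27 nt in DoHH-2, and 45 and 38 in GM01953. A separate T at 15 nt held 649 and 40. The 3 highest positions of H2AC7 were the same, and in the same order, in both lines. H2AC6 had its highest position in both lines at a G 6 nt from the stop codon, with 417 and 40 counts, and the next at a C at 22 nt, with 300 and 31. H2AC11 shared its highest position as well, a G at 31 nt with 328 and 23 counts, as did H2AC13, a G at 10 nt with 248 and 24 counts. H2AC13 had a second position of nearly the same height in DoHH-2, 246 counts at 17 nt, where GM01953 had 8. The highest position was thus the same nucleotide in both lines in 5 members, H2AC6, H2AC7, H2AC11, H2AC13 and H2AC14.

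In the other 5 members it differed. H2AC8 had 574 counts at a T 9 nt from the stop codon and 448 at a G at 23 nt in DoHH-2, and 31 and 54 in GM01953, so the order was reversed. H2AC16 had 694 counts at a T at 7 nt in DoHH-2 and 32 in GM01953, whereas its highest GM01953 position was a T at 21 nt, with 68 counts beside 445 in DoHH-2. H2AC12 had 331 counts at a T at 13 nt in DoHH-2 and 16 in GM01953, and its highest GM01953 position was a G at 24 nt, with 43 counts beside 78. That position lies 9 nt before the stem–loop, inside the end of the mRNA that is not unique in the genome. H2AC4 had 203 counts each at the G at 35 nt and the G at 42 nt in DoHH-2, with 11 and 8 in GM01953, and its highest GM01953 position was a T at 31 nt with 18 counts beside 153. Counts of this size in GM01953 leave the order of such neighbours open to counting error. When DoHH-2 was downsampled to the total count of GM01953, 6 of the 10 members kept their own highest position within 2 nt. H2AC4, H2AC7, H2AC13 and H2AC16 did not, although H2AC7 and H2AC13 shared that position with GM01953 at full depth. The part of depth in the 5 shared and 5 differing positions was not tested.

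Over all nucleotides from stop codon to stem–loop, the profile of a member in DoHH-2 correlated with its own profile in GM01953 with a Pearson's r of 0.58 (H2AC12) to 0.93 (H2AC14), with a median of 0.77 over the 10 members and 33 to 65 nt each. Different members were less alike. Over 45 pairs in DoHH-2, the median r was 0.02 when the mRNAs were aligned at the stop codon and 0.23 when aligned at the stem–loop. In GM01953 the medians were -0.03 and 0.06. The most alike pair in both lines, H2AC8 and H2AC14 aligned at the stem–loop, had an r of 0.86 in DoHH-2 and 0.77 in GM01953 over 33 nt, and both mRNAs have high positions 29 and 23 nt before the stem–loop. Their 3′ UTRs matched at 50% of these bases. All these values are descriptions, since the nucleotides of an mRNA share base composition and library.

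The cross-linked base was rarely an A. From stop codon to stem–loop, 38.8% of the nucleotides are A, but only 12.0% (DoHH-2) and 11.8% (GM01953) of the counts were on A. T makes up 23.1% of the interval and held 39.3% and 37.1% of the counts, and G makes up 17.7% and held 27.5% and 29.9%. C held 21.2% in each line, close to its 20.4% of the interval. Of the 30 highest positions, 3 a member, 12 were T, 13 G, 5 C and 0 A in DoHH-2, and 14 T, 13 G, 3 C and 0 A in GM01953. In the CDS the deviation was smaller, with A at 21.9% of the nucleotides and 11.9% (DoHH-2) or 9.02% (GM01953) of the counts, and T at 15.4% of the nucleotides and 17.4% and 17.8% of the counts. UV cross-linking itself has base preferences, whose part in these shares was not tested.

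Sequence shared between histone genes lay mostly in the CDS. Every nucleotide from stop codon to stem–loop was followed by a stretch of 31 nt that occurs once in the genome, in all 10 members, but near the stem–loop this stretch runs past the annotated end of the mRNA. It therefore does not cover the 272 counts that lie closer to the end than the shortest unique end, in H2AC7, H2AC12 and H2AC13. In the CDS this held for 98.2% of the nucleotides of H2AC8 but only for 22.6% in H2AC13 and 20.1% in H2AC14, whose coding sequences match at 98.2% of the bases, and for 78.5 to 92.3% in the other members. When only such nucleotides were used, the density after the stop codon was 9.71 times that of the CDS in DoHH-2 over all members, and 20.7 times in GM01953. In H2AC14 it fell from 11.6 to 2.52 times in DoHH-2 and from 24.0 to 5.05 in GM01953, and in H2AC13 from 13.9 to 3.69 and from 38.0 to 15.3. The counts that the CDS of H2AC13 and H2AC14 would hold without shared sequence are thus uncertain, and their distribution between CDS and 3′ UTR is the least firm of the 10.

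The gene names in the deposited tables divided the members unevenly. H2AC6 and H2AC11 carried their own older name (HIST1H2AC and HIST1H2AG) at 100% of their counts in both lines. In DoHH-2, 63.4% of the counts of H2AC4, 49.5% of H2AC14, 45.1% of H2AC12, 13.9% of H2AC13, 13.3% of H2AC8 and 8.18% of H2AC17 lay at positions with no gene. In GM01953 these shares were 81.1%, 64.7%, 66.8%, 11.2%, 4.57% and 5.96%. A neighbouring histone gene alone was named at 70.7% of the DoHH-2 counts of H2AC7 (HIST1H3D), 56.8% of H2AC16 (HIST1H2BN) and 60.7% of H2AC17 (HIST1H3J), and at 82.3%, 82.9% and 80.2% in GM01953. Summed over the members, 46.6% of the DoHH-2 counts carried the member's own name alone, 13.2% its name and a neighbour's, 24.0% a neighbour's alone and 16.1% none. A count by those names alone would therefore place much of the 3′ UTR signal of H2AC7, H2AC16 and H2AC17 on an H3 or H2B gene. H2AC6 also has annotated transcripts with an exon farther downstream (chr6:26138054-26139116). That exon held 0 counts in DoHH-2 and 6 in GM01953, so nearly all counts of H2AC6 came from the stem–loop mRNA.

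Sites are taken here as positions with a false discovery rate (FDR) below 0.05. The study also required enrichment over total RNA before it listed a gene as bound, which was not applied here. All 10 members had more than 20 counts at sites in DoHH-2, where 34.1% of the coding genes with a count passed, and 9 of 10 passed in GM01953, where 6.96% did. H2AC4 was the exception, with 11 of its 169 counts at sites in GM01953 and 730 of 3733 in DoHH-2. The share of counts at sites ran from 19.6% in H2AC4 and 36.8% in H2AC12 to 99.8% in H2AC16 in DoHH-2, and from 6.51% in H2AC4 and 15.3% in H2AC12 to 97.2% in H2AC16 in GM01953. Members with many counts at positions without a gene had the lowest shares, and the highest positions of H2AC4, H2AC12 and H2AC14 have an FDR of 1 and no gene name. With sites alone, 6 of the 10 members had a share at least 2 times higher in DoHH-2, where 23.8% of 2567 coding genes with at least 60 CPM at sites passed, and 0 a share at least 2 times higher in GM01953, where 36.2% did. The median ratio of those genes was 0.87, beside 2.03 over the members. With all positions 0 members passed, and the ratio of H2AC4 went from 1.82 to 6.95. Positions without a gene name drop out here by construction, with them the highest positions of H2AC4, H2AC12 and H2AC14. All these 3 are among the 6 members that passed. The ratios of H2AC4 (6.95) and H2AC12 (4.47) rest on 11 and 56 counts at sites in GM01953. The part of the filter in the 6 of 10 was not tested, so this number is not read as a result about the members.

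The factors that process, protect or degrade histone mRNAs were looked at through their own mRNAs. Of 18 such genes, 8 had more than 20 counts at sites in DoHH-2, where 34.1% of the coding genes with a count passed, and 1, SLBP, in GM01953, where 6.96% did. SLBP, the stem–loop binding protein, had 403 counts (DoHH-2) and 41 (GM01953), and UPF1, a helicase of RNA decay, 192 and 16. Of the 5 factors with at least 60 CPM on average, CPSF2, a subunit of the cleavage complex, had a share 2.09 times higher in DoHH-2, from 229 and 9 counts, where 16.7% of the coding genes passed, and none a share 2 times higher in GM01953, where 18% did. Of 7 B-cell marker genes, 6 had counts in DoHH-2 and 7 in GM01953. Of the 20046 coding genes, 11531 had a count in DoHH-2 and 9144 in GM01953. The B-cell markers were unlike each other, with 968 (DoHH-2) and 346 (GM01953) counts for CD74, 99 and 7 for CD79B and 12 and 145 for MS4A1. None of the 9 markers of T cells, myeloid cells and epithelial cells had a count in either line.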

How the data were processed

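iCLIP of eIF4B was performed by the authors in DoHH-2 and GM01953 cells. Per the study's methods, the authors removed PCR duplicates with BBMap, demultiplexed with Je, trimmed adapters, merged small replicates and aligned to GRCh38 by HiSat2. The deposited cDNA counts of each nucleotide come from iCount, run by the authors on pooled replicates, and are raw whole numbers. Beside each count stands an FDR, an adjusted p-value that the authors obtained with iCount. Tool versions, the minimum read length and the treatment of reads with several matches are not given in the sources used here. Total counts were 2033156 in DoHH-2 and 167197 in GM01953.

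The position column was read as a 0-based start, and a position listed under several genes was counted once with its lowest FDR. Exons came from GENCODE release 44. The stem–loop mRNA is the Ensembl canonical transcript, and stem–loops were found by the 16-nt sequences of the study's histone list. Shares have Wilson 95% intervals and ratios of shares exact intervals conditional on the summed count (scipy 1.17.1). A gene was given a ratio when its mean was at least 60 CPM (counts scaled to a total of 1000000), with a count of 0 set to 3, and ratios of at least 2 were counted. Words of 31 nt were searched on both strands of the reference genome without alternate contigs. Since every table is pooled, there was no test, no leave-one-out and no paired fit. The members, comparison sums, factors and markers were chosen with earlier results of these data known, and all 10 members are described. Other genes are named only as families, listed factors or other H2A genes. The counting steps were tested on simulated data with planted shares and positions.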

Additional observations from a re-analysis of the deposited data

How the results depend on the processing

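No paired analysis was possible because each cell line has a single pooled table, and no replicate could be left out for the same reason. Of the alternatives, 33 values stayed within the counting interval of the main value, within 1 nt or within 1.5 times, and the others are given here. The H2A share of counts, 3.90% in DoHH-2 and 2.75% in GM01953, was 6.63% and 3.35% at FDR below 0.05, 7.20% and 3.65% at FDR below 0.01, 5.01% and 3.90% over coding exons, 0.303% and 1.04% of distinct positions, and 3.24% and 2.31% without H2AC16. In DoHH-2 it was 3.79% with unique words centred on the position and 3.83% with unique words downstream of it. The ratio of shares, 1.42, was 1.98 at FDR below 0.05, 1.97 at FDR below 0.01 and 1.29 over coding exons. It turned to 0.291 for distinct positions, and was 1.20 for distinct positions with DoHH-2 thinned to the total of GM01953. As shares of the counts in coding exons, the ratio of the interval from stop codon to stem–loop turned from 1.07 to 0.968 and that of the CDS went from 2.24 to 2.04.

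The share from stop codon to stem–loop, 53.4% in DoHH-2 and 71.2% in GM01953, was 57.3% and 79.8% at FDR below 0.05, 57.8% and 82.3% at FDR below 0.01, 11.4% and 35.9% of distinct positions, and 54.9% and 72.6% with unique words centred on the position. It was 69.6% in GM01953 without H2AC16. In DoHH-2 it was 53.8% when thinned, 54.4% with unique words downstream and 53.8% with positions read as 1-based. It stayed lower in DoHH-2 under each of these. The highest position of DoHH-2 lay at a median of 11.5 nt from the stop codon, and of 13 nt for the best window of 5 nt. When DoHH-2 was thinned, it lay 14.5 nt from the stop codon and at -24.5 nt from the stem–loop. At FDR below 0.05 it lay 8 nt from the stop codon and at -35.5 nt from the stem–loop in DoHH-2, and 15.5 nt and at -31.5 nt in GM01953. Under the FDR thresholds, positions without a gene name drop out by construction, and 7 of 10 members then kept their highest position between stop codon and stem–loop in each line. The unique words downstream, the positions read as 1-based, the thinned distinct positions and the ratios by region over coding exons were chosen after seeing the data. The depth of GM01953 limits the order of neighbouring positions, where the highest held 18 to 141 counts.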
